A study of Rattus norvegicus with 48 samples.

Results

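The 6 genes that bring cystine into the cell and turn its cysteine into glutathione were followed across all conditions of an RNA-seq study of rat brain cultures. They were taken by symbol, 6 of the 30211 genes in the deposited table: Slc7a11, Slc3a2, Gclc, Gclm, Gss and Gsr. All 6 passed the filter on low values that left 15890 genes for testing. The study exposed primary mixed cortical cultures from fetuses of Sprague-Dawley rats (day 18 of gestation, day 21 in culture) to the HIV-1 protein Tat, to cocaine and to small molecules, and held 48 libraries in 16 groups of 3. Cultures received no Tat, cocaine or compound (Control; a vehicle control is mentioned in the series' text, but its vehicle is not named), cocaine at 25 µM for 24 h (Cocaine), Tat at 6 ng/ml for 48 h (Tat) or both agents (Tat-Cocaine). Each of 4 compounds, present for 48 h, was added to otherwise untreated, Tat and Tat-Cocaine cultures: 4-octyl itaconate (4OI) at 250 µM, Amlexanox at 25 µM, Tazemetostat at 3 µM and Senicapoc at 1 µM. 4OI is a cell-permeable ester of the metabolite itaconate, Amlexanox an inhibitor of the kinases TBK1 and IKKε, Tazemetostat an inhibitor of the histone methyltransferase EZH2 and Senicapoc a blocker of a calcium-activated potassium channel. Each compound had a single dose and the doses differ, so values of different compounds are those of these doses only.

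Glutathione is a tripeptide of glutamate, cysteine and glycine and the main small thiol antioxidant of the cell. Cystine enters through system xc-, a pair of the transporter Slc7a11 and the shared heavy chain Slc3a2, in exchange for glutamate, and in the brain the exchanger is best known from astrocytes. Glutamate-cysteine ligase, made of the catalytic subunit Gclc and the modifier subunit Gclm, joins glutamate and cysteine in the rate-limiting step, Gss adds glycine, and Gsr returns oxidised glutathione to its reduced form. Several of these genes are textbook targets of the transcription factor Nrf2, which binds the antioxidant response element and is held in check by Keap1. 4OI is known to modify Keap1.

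The sequence before the start of Gclm holds a match to the core of such an element, and whether it works as one was not tested. Promoter windows from RefSeq (assembly GRCr8) were at hand for 5 of the 6 genes, 2 of them for Slc3a2, and none for Gsr. The core TGACNNNGC was searched on both strands in the 250 bases before each start, and 2 of the 6 windows held it, those of Gclm and of the downstream start of Slc3a2, against 10.1% of all 33469 windows of the same length. Gclm and Slc7a11 changed most in the results below, the Slc7a11 window did not hold the core, and the Gclm window is shown whole. It lies on the plus strand at chr2:213031885-213032134, with the core, read here from the opposite strand, in capitals 172 bases before the start. Of the Slc3a2 window, on the minus strand, only the 29 bases around the core at chr1:215039697-215039725 are shown, 45 bases before that start.
Gclm: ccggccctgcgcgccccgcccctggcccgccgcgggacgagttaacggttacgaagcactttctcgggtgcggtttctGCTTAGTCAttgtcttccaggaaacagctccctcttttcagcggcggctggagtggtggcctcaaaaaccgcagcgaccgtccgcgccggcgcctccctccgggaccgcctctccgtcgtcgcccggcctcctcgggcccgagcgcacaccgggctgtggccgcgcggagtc
Slc3a2: gcggatcgggGCGGAGTCAtgggtcactt
Neither TGANTCA nor TGATGNAA, which can overlap the core in part, was found in any of the 6 windows, against 6.34% and 3.4% of all windows. A match describes the letters only, and these windows belong to another assembly than the one used for counting.

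Levels are given as CPM, the reads of a gene scaled by the authors to a common library size with the TMM method, and were not divided by gene length, so the CPM of different genes are not compared. Reads were estimated by taking the most frequent value above 0 in a library as 1 read. By this estimate libraries held 17.5 to 29.1 M reads assigned to genes (M, mega), and a member was covered by between 535 and 34029 reads in a library. Libraries of a group correlated at r between 0.963 and 0.996 over the tested genes. Although the labels name the cells neurons, the 7 astrocyte markers summed to between 5410 and 13240 CPM, the 7 neuronal markers to between 792 and 3448 CPM and the 7 microglial markers to between 184 and 2068 CPM, while Cldn5 of endothelium stood at 0 in 25 libraries. One library stood apart in its oligodendrocyte markers, Cocaine replicate 3, whose 5 markers summed to 23190 CPM. In bulk libraries like these, fewer cells of a type and less RNA per cell cannot be told apart. The labels do not say whether the 3 libraries of a group came from separate dissections, so that p-values measure the spread between libraries only, pooled over the groups of a fit.

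**Figure D1:**
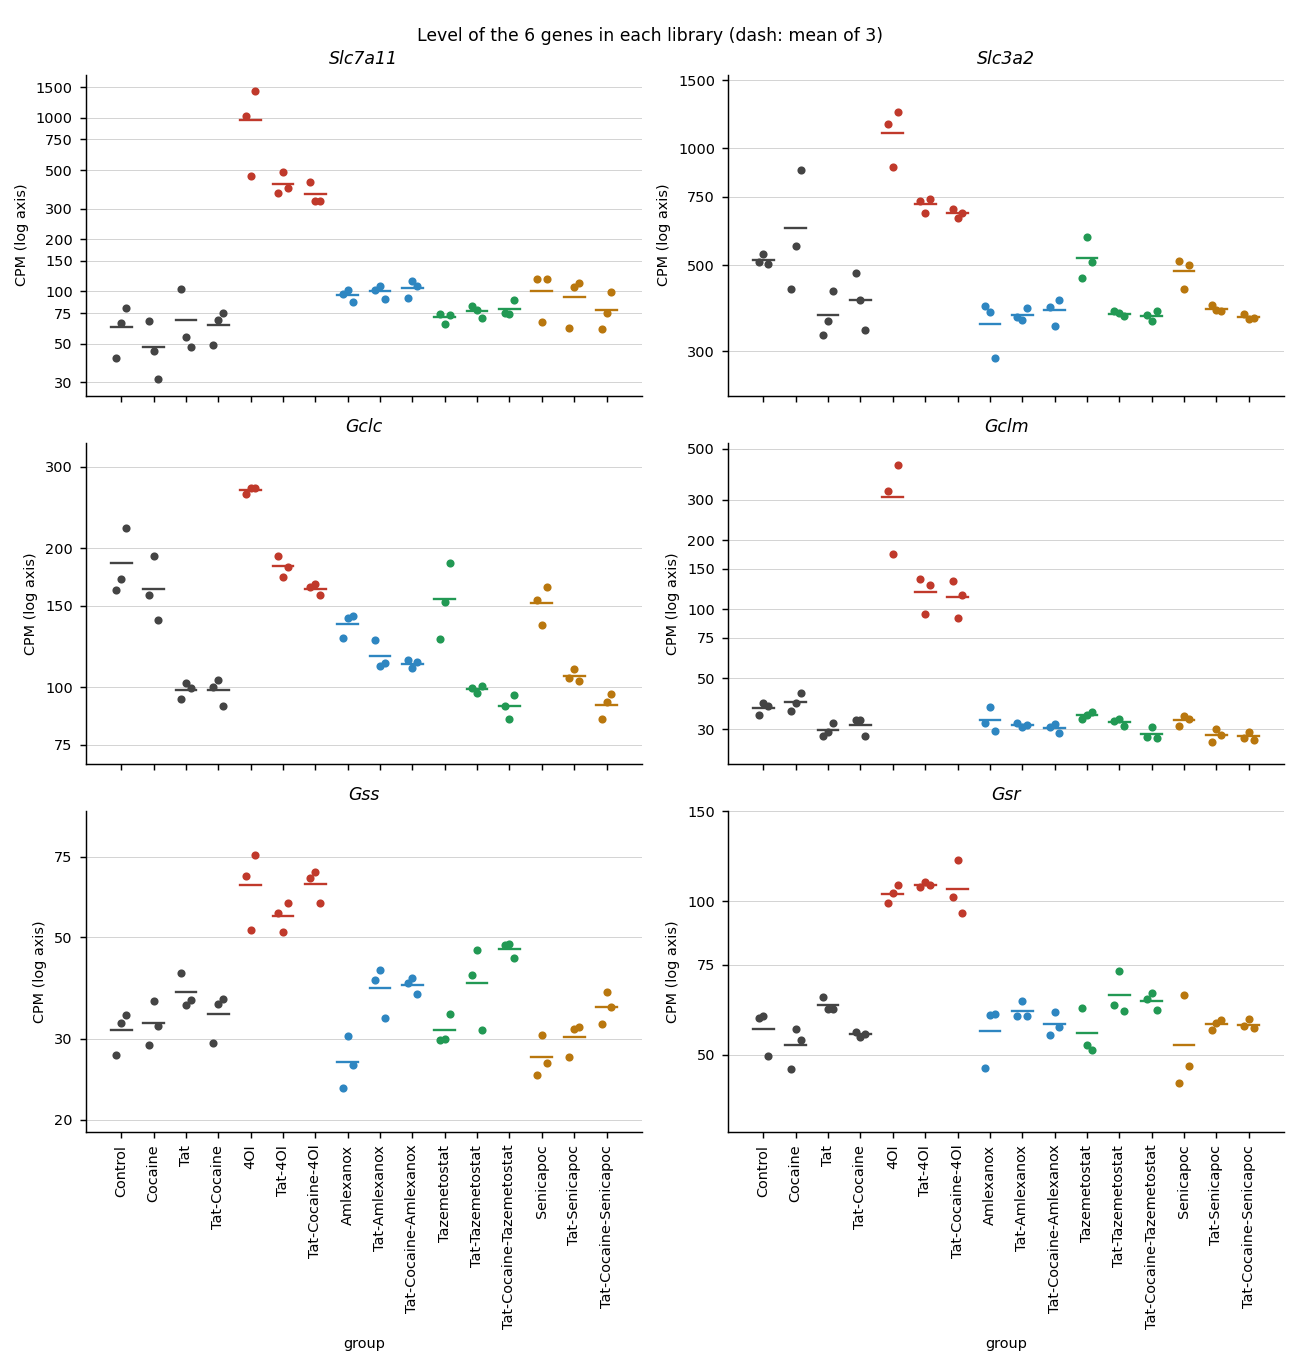
CPM of each gene (log axis) in the 48 libraries by group, with points for libraries and a dash for the mean of 3, coloured by compound. The 9 libraries with 4OI lie above the 39 without it for Slc7a11, Gclm, Gss and Gsr, and Gclc steps down in the groups with Tat. How many of all tested genes separate in these ways was not counted.

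4OI raised all 6 genes, in each of the 3 backgrounds. The increase was largest for Slc7a11 and Gclm and smaller for the other 4. Fold changes are differences of log2(CPM + 0.5), tested with limma on all 48 libraries and called at a Benjamini-Hochberg false discovery rate (FDR) under 0.05. Standard errors (SE) rest on a spread pooled over all 16 groups, not on the compared libraries alone. Over other settings, smaller fits and fits without 1 library, the FDR against Control reached higher values. The highest was 0.015 for Slc7a11, 0.0279 for Slc3a2, 0.151 for Gclc, 0.0132 for Gclm, 0.047 for Gss and 0.0146 for Gsr. Against Control, 6 of 6 genes were higher with 4OI, where 2.47% of all tested genes were. In Tat cultures 6 of 6 were higher with 4OI (6.1% of all genes), and in Tat-Cocaine cultures again 6 of 6 (4.07% of all genes). Averaged over the 3 backgrounds the count was 6 of 6, beside 11% of all genes. The members were chosen with earlier results of these data known. Their counts beside the shares of all genes are therefore a description, here and below.

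Slc7a11, the cystine-carrying chain of the exchanger, was measured at 41.7, 66.3 and 80.1 CPM in Control and at 1029, 464 and 1419 CPM with 4OI. In Tat cultures it stood at 103, 55.0 and 48.2 CPM, and with 4OI added at 371, 488 and 394 CPM. Tat-Cocaine cultures had 49.4, 68.6 and 74.97 CPM, and Tat-Cocaine-4OI cultures 429, 331 and 332 CPM. No library with 4OI overlapped any without it, since the 39 libraries without 4OI ended at 118 CPM and the 9 with it began at 331 CPM. The share of all genes that separate these libraries was not computed, here or for the other members. The log2 fold change was 3.85 ± 0.31 (SE, FDR = 2.96e-11) against Control, a 14.4-fold rise, 2.67 ± 0.31 (FDR = 1.54e-07) in Tat and 2.50 ± 0.31 (FDR = 5.71e-07) in Tat-Cocaine cultures. The 3 libraries with 4OI alone spanned a 3.06-fold range, with replicate 2 the lowest, and without that library the rise against Control was 4.31.

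Slc3a2, the heavy chain that carries Slc7a11 and several other amino acid transporters to the membrane, moved less. Its Control values were 509, 534 and 504 CPM and its values with 4OI were 1159, 895 and 1241 CPM, with no overlap. The log2 fold change was 1.08 ± 0.15 (FDR = 8.38e-06). With Tat the change on adding 4OI was 0.95 ± 0.15 (FDR = 3.73e-05), from 330, 360 and 428 CPM to 731, 681 and 742 CPM. With Tat and cocaine it was 0.75 ± 0.15 (FDR = 0.00122), although in a fit of those 6 libraries alone the FDR was 0.0842. Cocaine replicate 3, the library with the high oligodendrocyte markers, had 881 CPM, the highest value outside the 4OI groups.

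Gclm, the modifier subunit, followed Slc7a11 in size. In Control it was measured at 34.8, 39.2 and 38.1 CPM and with 4OI at 326, 175 and 424 CPM, so that replicate 2 was again the lowest of the 4OI libraries and still above every library without 4OI. The log2 fold change was 2.94 ± 0.16 (FDR = 3.26e-15), a 7.66-fold rise. Tat-4OI libraries held 135, 95.4 and 127 CPM against 28.2, 29.2 and 31.96 CPM in Tat (log2 fold change 1.97 ± 0.16, FDR = 2.18e-10). Tat-Cocaine-4OI libraries held 133, 92.1 and 115 CPM against 33.04, 33.03 and 28.1 CPM in Tat-Cocaine (1.82 ± 0.16, FDR = 9.59e-10). The 39 libraries without 4OI lay between 26.5 and 43.2 CPM and the 9 with it between 92.1 and 424 CPM.

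Gclc, the catalytic subunit, rose much less than its partner. Control libraries had 163, 172 and 221 CPM and 4OI libraries 262, 270 and 270 CPM, with no overlap. The log2 fold change was 0.54 ± 0.10 (FDR = 0.00115), a 1.46-fold rise, and in a fit of these 6 libraries alone the FDR was 0.151. On adding 4OI to Tat the values went from 94.2, 102 and 99.4 CPM to 192, 173 and 182 CPM (0.88 ± 0.10, FDR = 2.43e-07). On adding it to Tat-Cocaine they went from 100.3, 104 and 91.3 CPM to 165, 167 and 158 CPM (0.73 ± 0.10, FDR = 9.67e-06).

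Within a library, the ratio of Gclc to Gclm CPM gives the balance of the subunit transcripts up to a constant set by gene length, and only its change is read here. The ratio was between 2.78 and 5.81 in the 39 libraries without 4OI. With 4OI alone it was between 0.636 and 1.55, and with 4OI and Tat, with or without cocaine, between 1.24 and 1.82. The ratio of Slc3a2 to Slc7a11 shifted in the same way, from between 3.02 and 28.1 without 4OI to between 0.875 and 2.05 with it. In both pairs the library ranges with and without 4OI did not overlap, and ratios of other genes were not examined.

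**Figure D2:**
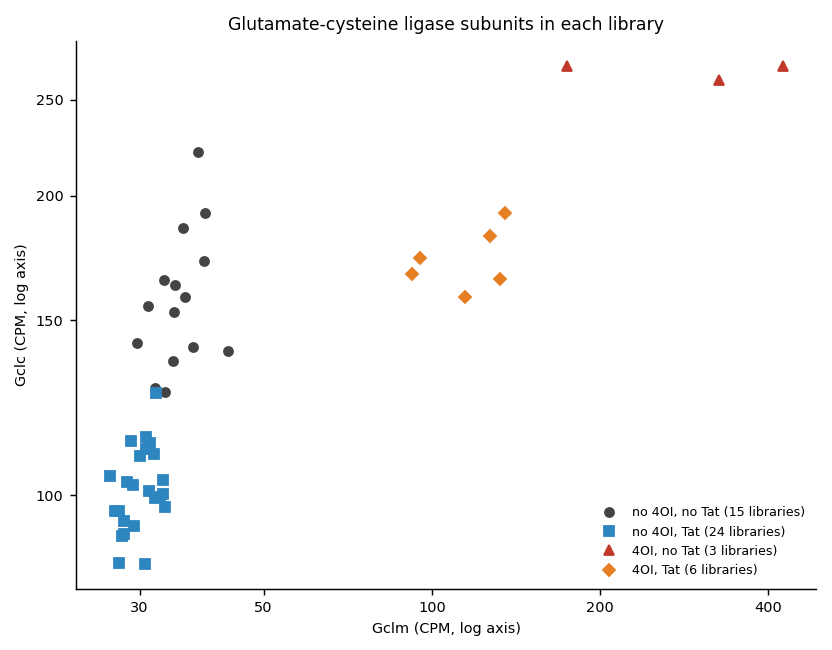
Gclc against Gclm in CPM (log axes), 1 point per library, by Tat and 4OI. The 9 libraries with 4OI lie apart along the Gclm axis, at 92.1 CPM or more, and the 24 libraries with Tat and without 4OI lie lowest along the Gclc axis, up to 126.7 CPM.

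Gss and Gsr, which finish the synthesis and regenerate the product, rose by similar amounts. For Gss, Control had 27.7, 32.6 and 33.8 CPM and 4OI 68.0, 51.8 and 75.6 CPM (log2 fold change 1.03 ± 0.13, FDR = 1.2e-06). Its rise was 0.55 ± 0.13 in Tat (FDR = 0.00355) and 0.94 ± 0.13 in Tat-Cocaine cultures (FDR = 6.24e-06). The 9 libraries with 4OI began at 51.4 CPM and the others ended at 48.4 CPM, a value from Tat-Cocaine-Tazemetostat. For Gsr, Control had 58.9, 59.7 and 49.8 CPM and 4OI 99.2, 104 and 107 CPM (0.88 ± 0.10, FDR = 2.88e-07). Gsr rose by 0.78 ± 0.10 in Tat (FDR = 2.66e-06) and by 0.93 ± 0.10 in Tat-Cocaine cultures (FDR = 8.87e-08), and its libraries with 4OI lay between 94.9 and 120.1 CPM against 44.1 to 72.8 CPM in all others.

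Markers of other cells moved in part with these groups. In the average over the 3 backgrounds, 5 of the 7 microglial markers were lower with 4OI, where 11.8% of all genes were. Of the 7 astrocyte markers 3 were higher (11% of all genes), while 0 of the 7 neuronal markers passed in limma. Among the 3 tested fibroblast and the 3 tested endothelial and mural markers, 1 each was lower. The astrocyte sum was between 9574 and 11550 CPM in 4OI and between 9409 and 11570 CPM in Control, which overlap. It was between 8587 and 10170 CPM in Tat-4OI, against 6470 to 8837 CPM in Tat. In Tat-Cocaine-4OI it was between 8591 and 13070 CPM, above Tat-Cocaine at 6534 to 8380 CPM. With 4OI, 1, 1 and 3 of the 7 astrocyte markers were called higher in Control, Tat and Tat-Cocaine cultures (2.47%, 6.1% and 4.07% of all genes). The microglial sum was between 361 and 779 CPM in 4OI and between 468 and 843 CPM in Control. In Tat-4OI it lay between 291 and 731 CPM and in Tat between 764 and 1477 CPM, and the part of these shifts in the results was not tested.

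For Gclm the 4OI effect differed with the background in the fit of all groups. Its rise was smaller in Tat than in Control cultures by 0.97 ± 0.23 (FDR = 0.0433, with 0.447% of all genes smaller in this way) and smaller in Tat-Cocaine than in Control cultures by 1.12 ± 0.23 (FDR = 0.0316, 0.0881% of all genes). These differences share the Control and 4OI libraries. The smallest was -0.69 and the largest -1.48 over all alternatives, and the calls depended on settings and on single libraries. In Tat the call was lost under 6 of 11 other settings, namely a pseudocount of 0.1 CPM, no filter, median ratio rescaling, quantile normalization, a fit of the 7 groups without the other compounds and a fit of only the compared groups. In Tat-Cocaine it was lost under 3 of 11, quantile normalization and both of those smaller fits. In Tat the call held only without 4OI replicate 2 of the 12 libraries left out in turn, and in Tat-Cocaine only without 4OI replicate 2, Tat-Cocaine replicate 3 or Tat-Cocaine-4OI replicate 1. For Slc7a11 the same differences were -1.18 ± 0.43 (FDR = 0.254) and -1.35 ± 0.43 (FDR = 0.269), and without 4OI replicate 2 they were -1.64 (FDR = 0.0453) and -1.81 (FDR = 0.0368). For Gclc the difference had the other sign, 0.34 ± 0.15 in Tat (FDR = 0.365) and 0.19 ± 0.15 in Tat-Cocaine, neither past the threshold.

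Tat by itself lowered Gclc, the catalytic subunit, and to a lesser degree Slc3a2. In Tat cultures 0 of 6 genes were higher, where 14.6% of all genes were, and 2 of 6 were lower, where 6.7% of all genes were. In Tat-Cocaine cultures 0 of 6 were higher (8.63% of all genes) and 1 of 6 was lower (6.3% of all genes). Both comparisons use the same Control libraries. At an unadjusted p under 0.05, 3 members passed in Tat (35.2% of all genes) and 2 in Tat-Cocaine cultures (28.3% of all genes).

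Gclc fell by 0.89 ± 0.10 on the log2 scale in Tat (FDR = 7.35e-08, 1.86-fold) and by 0.90 ± 0.10 in Tat-Cocaine cultures (FDR = 1.17e-07). All 6 of these libraries lay between 91.3 and 104 CPM, below the lowest Control library at 163 CPM. The drop held under each alternative and without each library. For Slc3a2 the change was -0.48 ± 0.15 in Tat (FDR = 0.0207) and -0.35 ± 0.15 in Tat-Cocaine cultures (FDR = 0.115), and the call in Tat was lost without any 1 of Tat replicates 1 and 2 and Control replicates 1 and 2, each in turn, and in the fits of 7 groups and of only the compared groups. Slc7a11 stood at 0.10 ± 0.31 (FDR = 0.835), with an interval from -0.52 to 0.72, so a change of that size was not detectable with this spread. Gclm at -0.32 ± 0.16 (FDR = 0.158), Gss at 0.27 ± 0.13 (FDR = 0.13) and Gsr at 0.16 ± 0.10 (FDR = 0.267) did not pass in Tat cultures. The Tat and Control libraries did not overlap for 5 of the 6 members, Gclm, Gss and Gsr included, nor for 33% of all tested genes.

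The sum of the 7 astrocyte markers was lower beside Gclc in Tat and Tat-Cocaine cultures, though most single markers were not called. It was between 6470 and 8837 CPM in Tat, between 6534 and 8380 CPM in Tat-Cocaine and between 9409 and 11570 CPM in Control. Called lower were 3 and 2 of the 7 markers (6.7% and 6.3% of all genes), with a median log2 fold change of -0.138 and -0.237. Of the microglial markers 3 of 7 were called higher in Tat (14.6% of all genes) and 0 of 7 in Tat-Cocaine (8.63%). The part of these markers in the lower Gclc was not tested.

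The Tat effect could be read again in cultures that all held the same compound. With 4OI in both groups, 4 of 6 genes were lower in Tat (2.1% of all genes), Gclm by -1.29 ± 0.16 (FDR = 3.61e-06), Slc7a11 by -1.08 ± 0.31 (FDR = 0.0305), Slc3a2 by -0.60 ± 0.15 (FDR = 0.0151) and Gclc by -0.55 ± 0.10 (FDR = 0.00106). Of these, the Slc7a11 call held only without 4OI replicate 2 of the 6 libraries, and the Slc3a2 call was lost without 4OI replicate 1 or 3 or Tat-4OI replicate 2. The fit of only the compared groups gave 2 calls, without Gclm (FDR = 0.0613) and Slc7a11, and the fit of 7 groups also gave 2, without Slc7a11 and Slc3a2. With Amlexanox, Gss alone was called, higher by 0.53 ± 0.13 (FDR = 0.00277, 22.6% of all genes higher). With Tazemetostat 2 of 6 were lower (5.63% of all genes), Gclc by -0.63 ± 0.10 (FDR = 6.91e-05) and Slc3a2 by -0.47 ± 0.15 (FDR = 0.0298, kept only without Tazemetostat replicate 1 of the 6 libraries). Both calls were lost in the fit of only the compared groups (FDR = 0.0546 for Gclc). With Senicapoc, Gclc was lower by -0.52 ± 0.10 (FDR = 0.000735, 5.15% of all genes lower).

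Averaged over the 5 pairs of groups, 3 genes were lower with Tat and 2 higher, where 26.7% and 29.9% of all genes were. Gclc fell by 0.56 ± 0.05 (FDR = 4.35e-12), Gclm by 0.40 ± 0.07 (FDR = 3.15e-05) and Slc3a2 by 0.36 ± 0.07 (FDR = 4.1e-05). For Gclm the single pairs differed widely, at -1.29 with 4OI, the only pair called, against -0.32 without a compound, -0.06 with Amlexanox, -0.09 with Tazemetostat and -0.21 with Senicapoc. The Slc3a2 pairs ran from -0.60 with 4OI to 0.09 with Amlexanox. Gss rose by 0.21 ± 0.06 (FDR = 0.00253) and Gsr by 0.15 ± 0.05 (FDR = 0.00617), and Slc7a11 was at -0.18 ± 0.14 (FDR = 0.262). The single Gss pairs ran from -0.21 with 4OI to 0.53 with Amlexanox, the only Gss pair called, and no single Gsr pair was called. Over all groups without 4OI, the 24 Gclc libraries with Tat lay between 85.3 and 126.7 CPM and the 15 without Tat between 126.9 and 221 CPM, next to each other without overlap. How many of all genes split in this way was not counted. In the same average, 5 of 7 microglial markers were higher and 5 of 7 neuronal markers lower, and of 7 astrocyte markers 2 were higher and 3 lower. Their part in these changes was not tested.

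**Figure D3:**
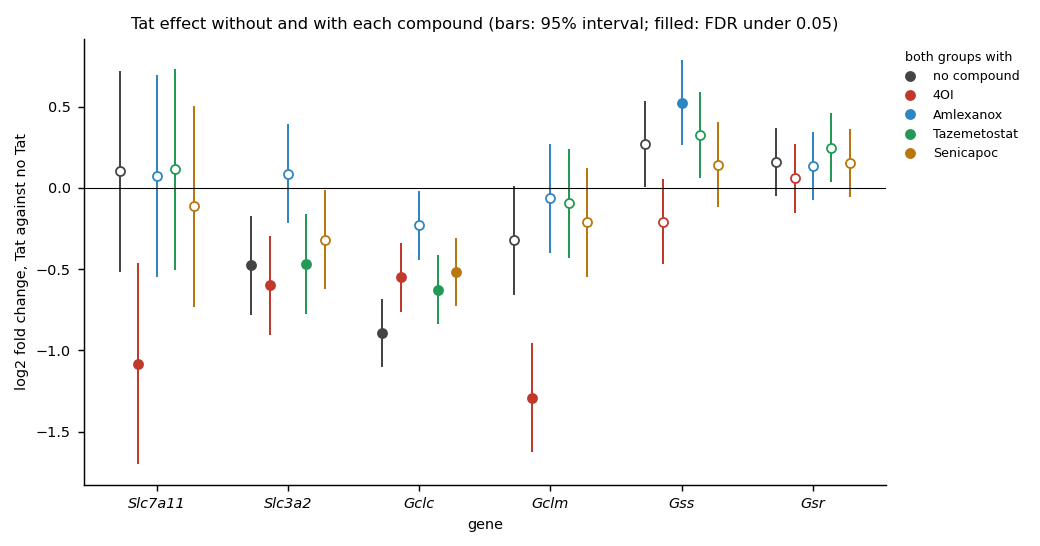
Log2 fold change of each gene between cultures with and without Tat, both without a compound or both with the same one, with 95% intervals and filled points where the FDR was under 0.05. Gclc lies below 0 in all 5 pairs, from -0.89 without a compound to -0.23 with Amlexanox, and Gclm and Slc7a11 lie lowest in the pair with 4OI.

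Seen against Control, cultures given Tat and 4OI together had Gclc at means of 183 and 163 CPM, beside 185 CPM in Control, and the other members at higher means than Control. In Tat-4OI, 5 of 6 genes were higher than Control (5.85% of all genes), and Gclc differed by -0.01 ± 0.10 with an interval from -0.22 to 0.20. The Slc3a2 difference there, 0.48 ± 0.15 (FDR = 0.0395), was lost on leaving out any 1 of the 6 libraries and under 4 of 11 other settings. In Tat-Cocaine-4OI, 4 of 6 were higher (9.25% of all genes), with Gclc at -0.17 ± 0.10 (FDR = 0.293) and Slc3a2 at 0.40 ± 0.15 (FDR = 0.0711).

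Cocaine changed none of the 6 genes by the test in the unweighted fit of all 48 libraries. Against Control, 0 of 6 passed in limma, where 0.201% of all genes did, and 0 had an unadjusted p under 0.05, where 12.6% of all genes had. Slc3a2 had the widest spread, at 433, 560 and 881 CPM, and without Cocaine replicate 1 it was called higher (0.45, FDR = 0.0422). Added to Tat, cocaine gave 0 of 6 calls in cultures without a compound (0.0189% of all genes), with 4OI, Amlexanox or Tazemetostat (0% of all genes each) and with Senicapoc (0.183%), again with 0 members at an unadjusted p under 0.05. In the average of the 5 pairs 0 of 6 passed (4.55% of all genes) and 1 had an unadjusted p under 0.05 (20.1% of all genes), Gclc at -0.11 ± 0.05 (FDR = 0.168). This Gclc average was called lower with libraries weighted by their spread (array weights, FDR = 0.0212) and in the fit of only the compared groups (FDR = 0.0196). Array weights also called Gclc lower with Senicapoc (FDR = 0.0298) and Gss higher with Tazemetostat (FDR = 0.0414). The intervals of this average stayed within -0.35 and 0.23 for all 6 genes.

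The other 3 compounds left most members within the spread between libraries. Amlexanox alone lowered 2 of 6 genes (7.6% of all genes lower), Slc3a2 by -0.56 ± 0.15 (FDR = 0.0135) and Gclc by -0.42 ± 0.10 (FDR = 0.00781). Slc3a2 stood at 391, 378 and 288 CPM with Amlexanox, and Gclc at 128, 141 and 142 CPM, all below Control. Either call was lost without Control replicate 3, without Amlexanox replicate 3 and in the fit of only the compared groups. The astrocyte sum ran from 5410 to 12910 CPM over the 3 Amlexanox libraries, and 4 of 7 astrocyte markers were called lower.

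In Tat and Tat-Cocaine cultures Amlexanox gave 0 of 6 calls in limma (0.837% and 0.925% of all genes), with 1 member each at an unadjusted p under 0.05 (12.5% and 17.8% of all genes). The Gclc effect of Amlexanox differed between backgrounds, by 0.66 ± 0.15 between Tat and Control cultures (FDR = 0.022, 1.41% of all genes differing upward) and by 0.62 ± 0.15 between Tat-Cocaine and Control cultures (FDR = 0.0114, 6.45% of all genes). These differences share the Control and Amlexanox libraries and were lost in the fit of only the compared groups, and without Amlexanox replicate 3 or Control replicate 3, which had the highest Gclc value of Control. The difference in Tat was also lost without Tat replicate 3 or Tat-Amlexanox replicate 1. Averaged over the backgrounds, Slc7a11 was the 1 member called, higher by 0.66 ± 0.18 (FDR = 0.0163, 4.12% of all genes higher), with single values of 0.64, 0.61 and 0.72. Its 9 libraries with Amlexanox lay between 87.2 and 116 CPM.

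Tazemetostat changed 0 of 6 genes alone and in Tat cultures, where 0% of all genes passed in limma, with 1 and 0 members at an unadjusted p under 0.05 (3.62% and 5.36% of all genes). In Tat-Cocaine cultures it raised Gss, by 0.48 ± 0.13 (FDR = 0.0118, 15.2% of all genes higher), from 29.5, 35.7 and 36.8 CPM to 48.1, 48.4 and 45.2 CPM, a call lost without Tat-Cocaine replicate 1 or Tat-Cocaine-Tazemetostat replicate 2. Markers moved beside it, with 6 of 7 neuronal markers lower (sums of 792 to 1198 CPM, against 1764 to 2317 CPM in Tat-Cocaine) and 3 of 7 microglial markers higher (1228 to 2015 against 484 to 912 CPM). Of the others, 2 of 5 oligodendrocyte, 1 of 3 oligodendrocyte precursor and 1 of 7 astrocyte markers were lower. Also lower were 2 of 3 tested fibroblast and 1 of 3 tested endothelial and mural markers, and both tested ependymal markers were higher. Of all genes, 13.4% were lower and 15.2% higher in this comparison. The part of these marker shifts in the Gss result was not tested. Averaged over the backgrounds 0 of 6 members passed the FDR threshold, where 11.4% of all genes did, and 2 had an unadjusted p under 0.05, where 33% of all genes had. Senicapoc gave 0 of 6 calls alone (0% of all genes), in Tat (0.409%), in Tat-Cocaine (0.0441%) and on average (1.16%), with 2, 1, 0 and 1 members at an unadjusted p under 0.05 (8.67%, 18.3%, 15.5% and 17.9% of all genes). The effects of Tazemetostat and Senicapoc differed between backgrounds for 0 of 6 genes and 0% of all genes. At an unadjusted p under 0.05, 1 member passed for Tazemetostat between Tat-Cocaine and Control cultures, Gss (13.8% of all genes). For Senicapoc 1 member passed between Tat and Control cultures, Gclc (4.8% of all genes). The remaining differences had 0 members at that p (1.71% of all genes for Tazemetostat in Tat, 14.5% for Senicapoc in Tat-Cocaine). Compared directly over the 3 backgrounds, each of the 6 genes was higher with 4OI than with Amlexanox (13.4% of all genes higher), Tazemetostat (21.4%) or Senicapoc (13.2%), from 0.66 ± 0.08 for Gss against Tazemetostat to 2.74 ± 0.18 for Slc7a11 against Tazemetostat.

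**Figure D4:**
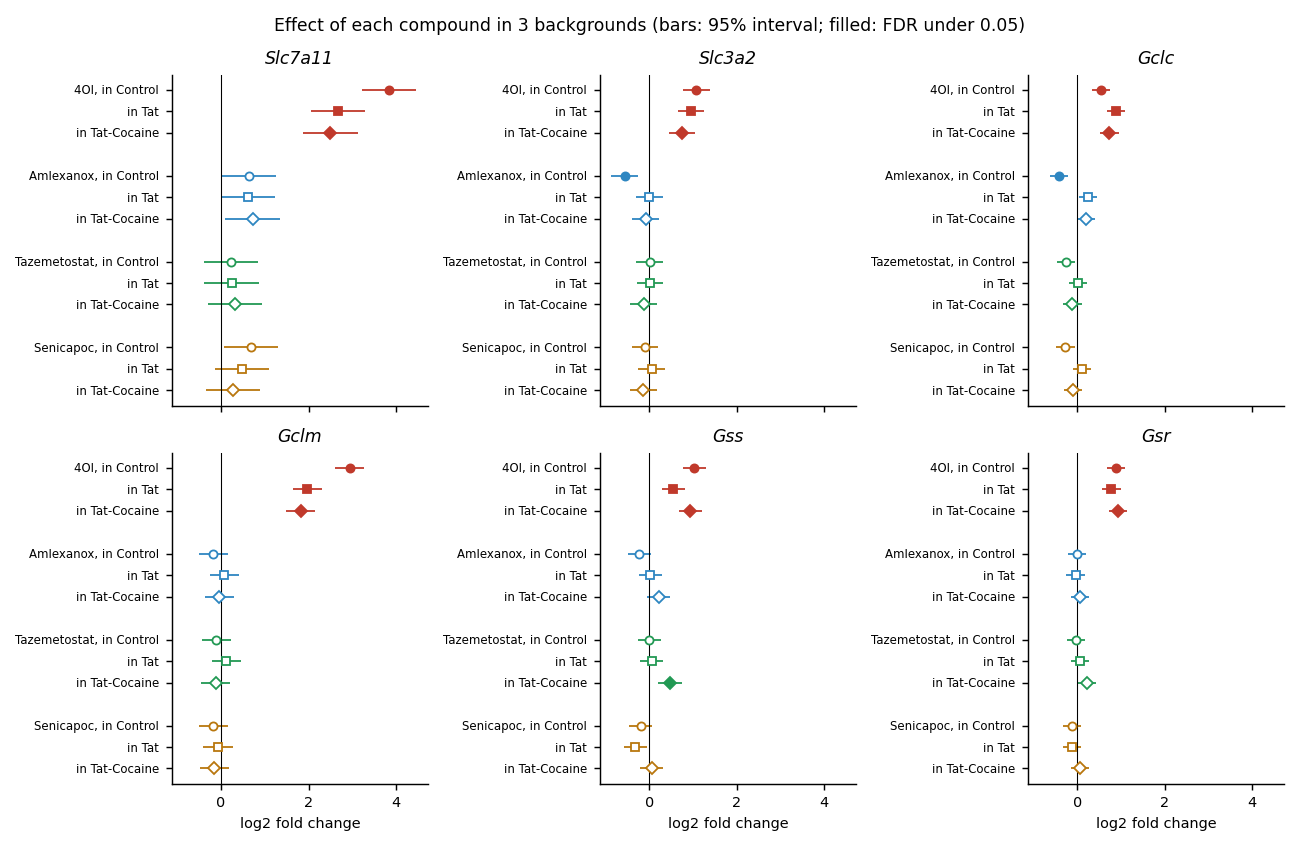
Log2 fold change on adding each compound to Control, Tat or Tat-Cocaine cultures, 1 panel per gene, with 95% intervals and filled points where the FDR was under 0.05. All 18 values of 4OI are filled and above 0, and 3 of the 54 values of the other 3 compounds are filled.

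Ordered by mean CPM over the 16 groups, the 3 groups with 4OI took the first 3 places for Slc7a11, Slc3a2, Gclm, Gss and Gsr. Most neighbours in the order overlapped in their libraries: of the 15 neighbouring pairs, 1 was apart for Slc7a11, Slc3a2 and Gss, 2 for Gclm and Gsr, and 5 for Gclc. The Slc7a11 gap lay between Tat-Cocaine-4OI at 364 ± 56.2 CPM (SD, n = 3) and Tat-Cocaine-Amlexanox at 105 CPM. Gclc was ordered otherwise, with 4OI first at 267 ± 4.9 CPM, then Control at 185 ± 31.5 and Tat-4OI at 183 ± 9.46, and with the 8 groups that had Tat and no 4OI at the end, from 117 down to 90.8 CPM.

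The other genes of the pathway moved in both directions. Of 46 related genes, 43 passed the filter and were tested. With 4OI, 4 were higher and 1 lower against Control, where 2.47% and 0.686% of all genes were. In Tat cultures 4OI raised 6 and lowered 5, beside 6.1% and 9.48% of all genes, and in Tat-Cocaine cultures it raised 5 and lowered 4, beside 4.07% and 3.29%. Tat raised 8 and lowered 5 (14.6% and 6.7% of all genes) and Tat-Cocaine raised 5 and lowered 2 (8.63% and 6.3%). The median log2 fold change of the 43 with 4OI against Control was 0.10, beside 0.00 over all genes.

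Keap1, the protein that holds back Nrf2, and Slc1a2, an astrocytic glutamate transporter, were called higher with 4OI in all 3 backgrounds. Keap1 rose by 0.55 ± 0.08 against Control (FDR = 2.71e-05), 0.49 ± 0.08 in Tat and 0.29 ± 0.08 in Tat-Cocaine cultures. Slc1a2 rose by 0.96 ± 0.20 (FDR = 0.00374), 0.79 ± 0.20 and 0.73 ± 0.20. Abcc4, an exporter that can carry glutathione, rose in 2 backgrounds, by 0.90 ± 0.19 against Control (FDR = 0.00304) and by 0.63 ± 0.19 in Tat-Cocaine cultures. Csad, which leads cysteine towards taurine, also rose in 2, by 0.34 ± 0.11 in Tat (FDR = 0.0389) and 0.37 ± 0.11 in Tat-Cocaine cultures.

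Partners of Slc3a2 went different ways. Slc7a8 rose with 4OI in Tat (0.92 ± 0.16, FDR = 0.000177) and Tat-Cocaine cultures (1.20 ± 0.16, FDR = 4.95e-06). Slc7a6 rose with Tat (0.68 ± 0.10, FDR = 9.73e-06) and Tat-Cocaine (0.64 ± 0.10) and fell with 4OI added to each, by 0.54 ± 0.10 (FDR = 0.000427) and 0.46 ± 0.10. Glrx, a glutathione-dependent oxidoreductase, showed that order too, at 0.98 ± 0.14 with Tat (FDR = 1.76e-06) and -0.61 ± 0.14 on adding 4OI to Tat (FDR = 0.00204). Among the peptidases and enzymes of glutathione breakdown, Anpep rose with Tat (1.497 ± 0.26, FDR = 7.94e-05, mean 0.323 CPM in Control) and fell by 0.92 ± 0.26 when 4OI was added (FDR = 0.0158). Dpep1 was lower with 4OI in all 3 backgrounds, by 0.94, 1.67 and 1.09 on the log2 scale, at low levels of 2.13 CPM in Control and 0.883 CPM in 4OI. Oplah, which opens 5-oxoproline, was lower in Tat (-0.51 ± 0.18, FDR = 0.0459) and Tat-Cocaine cultures (-0.64 ± 0.18, FDR = 0.0164).

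The genes most like each member were sought among 14210 genes by Pearson's r of the 16 group means, which share the 4OI groups as extremes. Gclm was closest to Ypel5 (r = 0.982), Blvrb and Cat, the catalase gene, and Gsr to Taldo1 of the pentose phosphate pathway (r = 0.987), Hmox1, the inducible haem oxygenase, and Chpf2. Slc7a11 was closest to the neutral amino acid transporter Slc1a4 (r = 0.963), AABR07054319.1 and Rapgef1, and Slc3a2 to LOC100911730 (r = 0.961), Pls3 and Sesn3. Gclc was closest to Nadk2, the mitochondrial NAD kinase (r = 0.985), Slc38a3 and Nwd1, and Gss to Mocos (r = 0.961), Sun2 and Nudt7. None of the members was among the 3 genes closest to another. Between members, r of the group means ran from 0.339 for Gclc with Gss to 0.933 for Slc7a11 with Gclm. Within groups, the deviations of the 48 libraries from their group means correlated between -0.342 for Gclc with Gsr and 0.508 for Gclm with Gss. Without the 3 libraries of the 4OI group the value for Gclm with Gss was 0.299, and the range ran from -0.444 for Slc7a11 with Slc3a2 to 0.484 for Gss with Gsr.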

How the data were processed

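RNA-seq libraries (48, polyA RNA, stranded) were analysed. The study's methods describe alignment with STAR and counting per gene with featureCounts. The submitters' processing notes list STAR 2.7.2, Subread 1.5.3 and Trim Galore 0.4.5, a trimming tool that the methods do not mention. The methods and those notes name different rat assemblies, so no position of the counted genes is given. The signal the authors deposited is CPM after TMM scaling in edgeR, with library sums between 930399 and 1046892. The values of 84.9 to 87.3% of a library's listed genes above 0 were whole reads within 0.02 read, and for the members 283 of 288 were, so reads were not recovered and no count test was run. Deposited columns of group means, fold changes, likelihood ratios, p-values and FDR of the authors' own comparisons were not used.

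A gene entered the test when 3 or more libraries reached 0.5 CPM, and values were analysed as log2(CPM + 0.5) with limma 3.58.1 in R 4.3.3 (lmFit, eBayes with a trend, 1 mean per group, 48 libraries), after a check on simulated data. FDR values were adjusted over all tested genes, in each of 43 contrasts apart. The 6 members were named everywhere. Related genes were named when called in the same direction in at least 2 of 3 4OI contrasts or in both Tat contrasts, and for likeness the 3 genes with the highest r. Members and lists were chosen with earlier results of these data known. Replicate numbers came from the labels. Same-numbered libraries deviated together (each r over 0.1) in 9 of 26 pairs of groups, so both fits were made. Alternatives were other pseudocounts, filters, scalings, weights, sample sets, the replicate block and leaving out each library.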

Additional observations from a re-analysis of the deposited data

Results flagged for a closer look

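In 4 cases a compound's effect on a member differed between backgrounds by the test of the difference itself, out of 48 such differences in the 48-library limma fit. The Gclm rise with 4OI was smaller in Tat than in Control cultures (difference -0.969, 0.447% of all genes called lower) and smaller in Tat-Cocaine than in Control cultures (difference -1.12, 0.0881%). The Gclc change with Amlexanox, downward in Control cultures, was more positive in Tat (difference 0.664, 1.41% of all genes called higher) and in Tat-Cocaine cultures (difference 0.616, 6.45%). Each pair of differences shares its libraries without Tat. All 4 calls were lost in the fit of only the compared groups. Leaving out 1 of 12 libraries in turn, the Gclm calls were lost in 11 and 9 cases and the Gclc calls in 4 and 2.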

How the results depend on the processing

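Counts of member calls (FDR under 0.05, limma) were recomputed under each alternative. The 6 calls of 4OI in each background and on average, and the 18 against the other compounds, kept their number under every alternative except the fit of only the compared groups, which gave 5 against Control and 5 in Tat-Cocaine cultures. Fitting only the compared groups gave 1 call for Tat against Control (main 2), 1 for Amlexanox (main 3), 1 for cocaine added to Tat (main 0), 9 for the Tat effect under the compounds (main 13), 0 for the differences of compound effects (main 4) and 17 for the related genes (main 45), and the fit of 7 groups gave 1 for Tat. Both fits gave 2 calls for Tat with 4OI against 4OI (main 4). Array weights gave 5 for Amlexanox, 2 for Tazemetostat (main 1), 5 for Senicapoc (main 0), 20 for the Tat effect under the compounds, 3 for cocaine added to Tat and 11 for the differences, and quantile normalization gave 2 for the differences. The cause of these shifts was not tested, and the fits that left out groups also held fewer libraries. Without each library in turn, calls ran from 1 to 2 for Tat, 0 to 1 for Cocaine, 1 to 3 for Amlexanox, 0 to 2 for Tazemetostat and 0 to 6 for the differences. Of 75 single calls, 765 of 792 values under other settings and 839 of 894 without a library kept direction and threshold, and 0 reversed. With the replicate number as a block, which pairs libraries by their labels, all 75 calls were kept (2 for Tat, 6 for 4OI against Control), and the related genes had 51. The members had an estimated 535 reads or more in each library, and the standard errors were largest for Slc7a11. Whether depth or the spread between 3 libraries limited the calls was not tested.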
